A study of Mus musculus with 2 samples.

Results

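The genes of mitosis and the kinetochore were followed in MS1 cells with and without a hairpin against Pspc1. They are 59 genes picked by name for their role: mitotic cyclins and their kinase, the other mitotic kinases, spindle checkpoint genes, kinesins, kinetochore and centromere genes, spindle and cytokinesis genes, and condensin and other chromosome genes. All 59 had a value in both tables, among 11405 genes in all. MS1 cells are mouse endothelial cells of islet origin that were immortalised. The control group carried a lentivirus with a hairpin RNA against LacZ, a bacterial gene, in cells labelled wild type. The knockdown group carried a lentivirus with a hairpin against Pspc1, a paraspeckle protein gene, and is labelled as a Pspc1 knockdown. Each group was 1 library, so the groups have no replicate error and no test was possible. Whether the lines were pools or clones, the time after infection and the growth state of the cultures are not given in the sources used here.

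Cells enter mitosis when cyclin B and its kinase CDK1 become active, and they leave it when the anaphase-promoting complex, with its activator CDC20, destroys cyclin B and securin. In between, condensin compacts the chromosomes, kinetochores attach them to spindle microtubules, and the spindle checkpoint holds the complex back until all are attached. Transcripts of most of these genes rise in the second part of the cell cycle. The DREAM repressor and then B-MYB and FOXM1 act through a promoter element called the cell cycle homology region, often beside CCAAT boxes bound by NF-Y. Their summed level is commonly read as a sign of how many cells divide. In bulk RNA, fewer dividing cells and less RNA per dividing cell cannot be told apart.

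Values are the authors' scaled read counts per gene, given throughout with the LacZ hairpin first and the Pspc1 hairpin second. Read numbers were inferred from the step between values in each library, which gave 64009912 and 53518762 reads on these genes. Per-gene reads and counting intervals rest on that inference. Log2 ratios are of knockdown over control with a pseudocount of 0.5, and a negative ratio means a lower value with the Pspc1 hairpin. Calls use this ratio, while fold values given without log2 are of the deposited values without pseudocount. Intervals are 95% exact counting intervals of the log2 ratio without pseudocount. They cover counting error only and compare these libraries, not the conditions. Pspc1 itself had values of 28.8 and 3.78, a log2 ratio of -2.77, or -2.93 without pseudocount (counting interval -3.15 to -2.71). Without pseudocount its value was 7.62-fold lower in the library with its own hairpin. Endothelial markers had values for 11 of 12 genes, with sums of 7212.0 and 7790.0 (log2 ratio of the sums 0.11, beside 0.10 over all genes). Of the 10 with a mean of at least 20, Plvap and Esam were over 1.5-fold higher with the Pspc1 hairpin (494.7 and 823.9, and 376.5 and 566.1) and Cdh5 and Kdr over 1.5-fold lower (859.4 and 511.1, and 148.9 and 77.3). Over all genes of that level, 3.82% were at least 1.5-fold higher and 5.52% lower. Tek, with a mean under 20, had 13.6 and 7.13 (log2 ratio -0.89), where 20.5% of all genes under 20 were at least 1.5-fold lower. None of the 7 islet endocrine or 6 acinar and ductal markers had a value, while 2 of 8 fibroblast and mural markers (sums of 1.87 and 3.37) and 1 of 7 leukocyte markers had one. The leukocyte marker was Cd68, a lysosomal protein gene, with 102.7 and 123.7. What part these sums have in the results was not tested.

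The promoters of the group share sequence features that its selection did not use. RefSeq windows from 250 bases before to 50 bases after the transcription start, on build GRCm38.p6, were at hand for 51 of the 59 genes. The letters TTTGAA, the core of the cell cycle homology region, stood on either strand in the windows of 36 genes (70.6%), against 13.8% of the 8688 genes with values that have a window. A variant, TTCGAA, was found in 4 genes (7.84%, against 2.62%). CCAAT, on either strand, was found in 40 genes (78.4%, against 43.4%), and CCAAT together with TTTGAA in 32 (62.7%, against 5.70%). The matches of CCAAT and TTTGAA shared bases in 1 gene. For 32 genes a TTTGAA match began within 50 bases of the start. Among genes of DNA replication and the G1/S transition, TTTGAA was present in 6 of 34 windows (17.6%) and CCAAT in 22 (64.7%). Of 100 windows of genes from 7 other mitosis lists, 34 held TTTGAA, 51 held CCAAT and 20 held both. These matches are a description of letters and were not tested as binding sites.

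The promoters of 6 genes are shown as stretches from 120 bases before to 30 bases after the start, 5′ to 3′ on the gene's strand, with every match of these motifs in capitals. A CCAAT box on the opposite strand reads ATTGG. For the cell cycle element the opposite strand reads TTCAAA. Cdc20 (chr4:118437314-118437463 on the minus strand) has the highest value of the 59 genes, and Ccnb2 (chr9:70421525-70421674 on the minus strand) encodes a B-type cyclin. Cenpa (chr5:30666766-30666915 on the plus strand) and Cenpx (chr11:120713779-120713928 on the minus strand) differed most, upwards and downwards, among well-measured genes. Kif11 (chr19:37376262-37376411 on the plus strand) and Kif20b (chr19:34922238-34922387 on the plus strand) are low-valued kinesin genes that were lower with the Pspc1 hairpin.
Cdc20: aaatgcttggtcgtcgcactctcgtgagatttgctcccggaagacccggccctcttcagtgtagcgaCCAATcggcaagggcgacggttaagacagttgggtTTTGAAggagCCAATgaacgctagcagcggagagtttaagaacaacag
Ccnb2: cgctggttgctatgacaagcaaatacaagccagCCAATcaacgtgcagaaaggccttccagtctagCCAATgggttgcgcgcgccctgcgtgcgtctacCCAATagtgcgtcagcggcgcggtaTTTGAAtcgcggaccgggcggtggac
Cenpa: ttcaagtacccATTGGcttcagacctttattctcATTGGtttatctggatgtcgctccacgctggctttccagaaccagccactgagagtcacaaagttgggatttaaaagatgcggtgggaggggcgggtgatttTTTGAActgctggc
Cenpx: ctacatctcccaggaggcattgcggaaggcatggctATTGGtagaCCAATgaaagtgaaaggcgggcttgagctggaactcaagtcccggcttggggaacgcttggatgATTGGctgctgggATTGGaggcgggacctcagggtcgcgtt
Kif11: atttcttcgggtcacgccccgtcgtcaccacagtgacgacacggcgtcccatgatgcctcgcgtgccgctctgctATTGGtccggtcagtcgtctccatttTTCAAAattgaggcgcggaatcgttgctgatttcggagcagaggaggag
Kif20b: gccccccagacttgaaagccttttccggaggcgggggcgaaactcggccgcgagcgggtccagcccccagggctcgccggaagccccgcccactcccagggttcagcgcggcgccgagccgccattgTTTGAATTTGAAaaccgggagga
Cdc20 and Ccnb2 carry both elements close to the start, Cenpx has CCAAT boxes without TTTGAA, and Kif20b has adjoining copies of TTTGAA without CCAAT. Across the 51 genes, those with TTTGAA had a median log2 ratio of -0.24 (36 genes) and those without it of -0.20 (15 genes). The element was about as common in genes with a mean value under 20 (16 of 22, 72.7%) as in those with 20 or more (20 of 29, 69.0%).

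**Figure D1:**
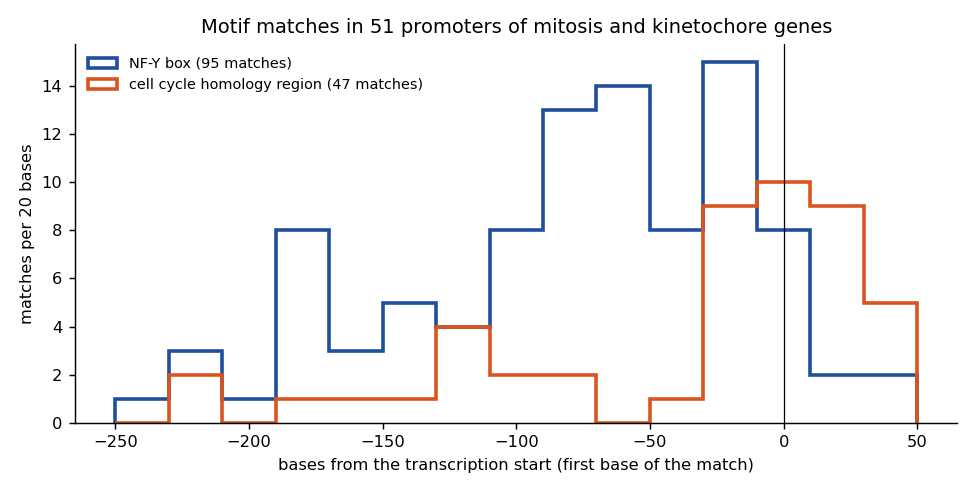
Number of motif matches per 20 bases (y axis) by distance of the first base of the match from the transcription start (x axis, bases) in 51 promoters, with 1 window per gene. The 95 NF-Y box matches (CCAAT, blue) lie mostly before the start, and the 47 matches of the cell cycle homology region (TTTGAA, orange) crowd around it.

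The group split by level. Of the 59 genes, 35 had a mean value of both libraries of at least 20, and 24 had a mean under 20. Genes of the first kind differed little between the libraries, while nearly all of the second kind were lower with the Pspc1 hairpin. This split came from a minimum mean of 20 that was set for the calls. Describing the genes under it by themselves was added after the data were seen. They are called higher or lower by the same factors of 1.5 and 2, with no minimum value. By the factor of 1.5, 20.5% of all 5513 genes under 20 were lower and 5.88% higher. Top2a lay just under the minimum (mean value 19.8), and Anln was the nearest gene above it (28.2).

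Among the 35 genes of mean 20 or more, 1 was at least 1.5-fold higher with the Pspc1 hairpin and 2 were at least 1.5-fold lower. Over all 5892 genes of that level, 3.82% were higher and 5.52% lower by that factor, so the counts of this group are near the background. The median log2 ratio was -0.001, with 18 genes below 0 and 17 above, and the median over all genes of that level was 0.04, with 45.03% below 0. With the stricter rule of a 2-fold change and a mean of at least 50, no gene of the 32 was higher and 1 was lower, against 0.551% higher and 0.937% lower of 3629 genes. The summed values of the 35 genes were 5318.3 and 5613.1, a log2 ratio of 0.08. For the sums over all 5892 genes of that level it was 0.11.

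**Figure D2:**
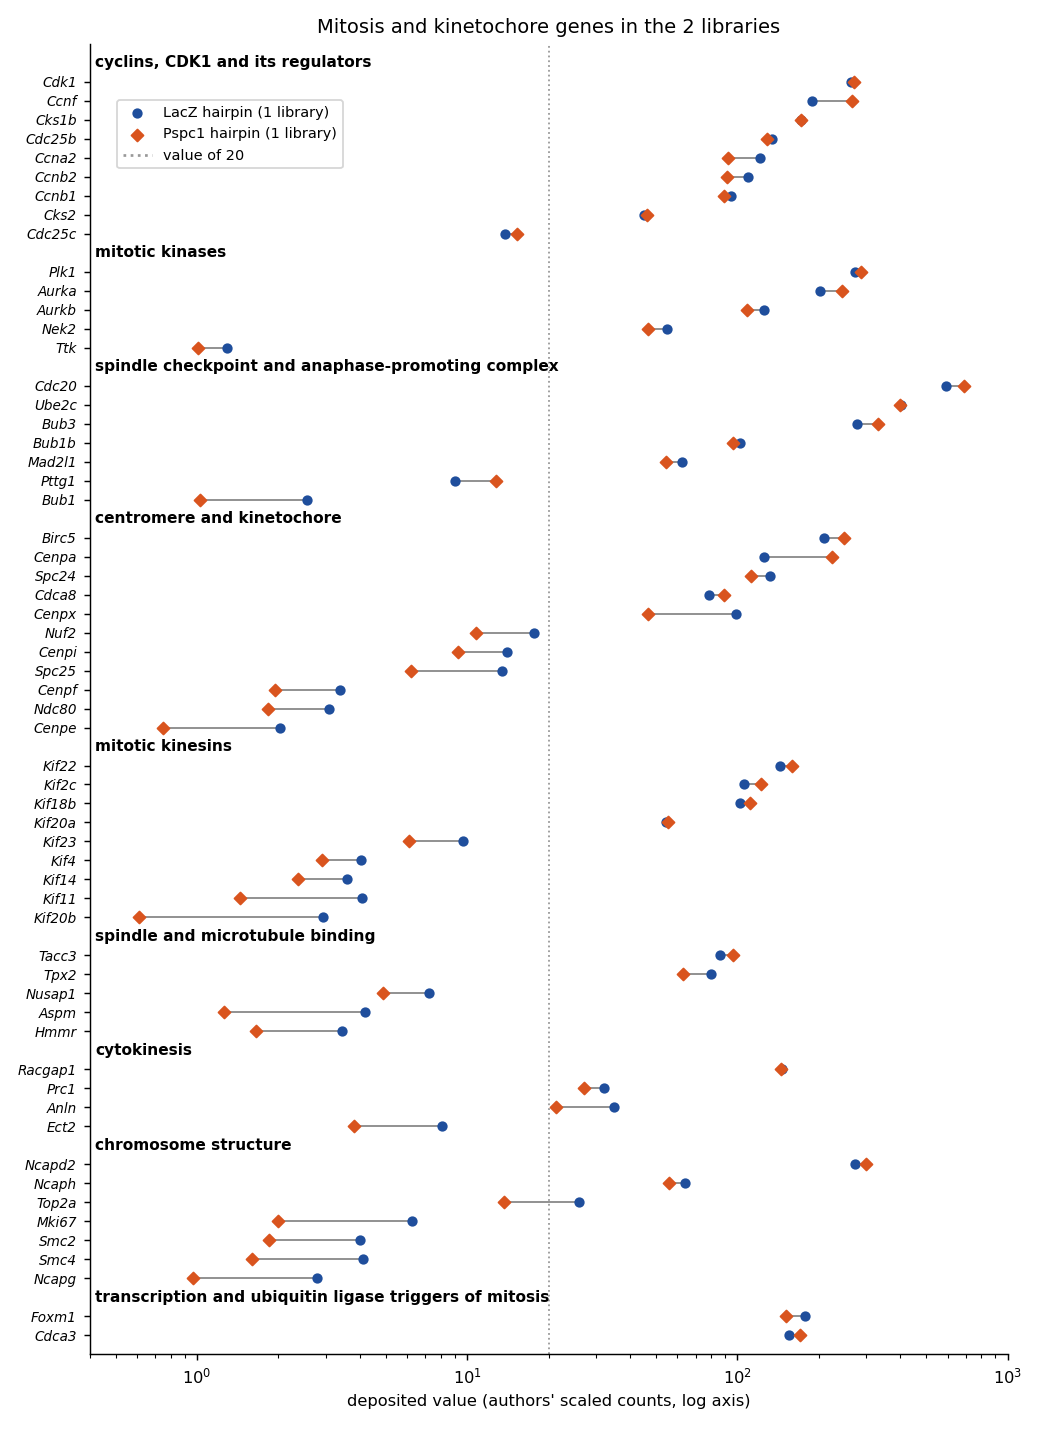
Deposited value (x axis, log scale) of each of the 59 genes (rows, grouped by role) in the library with the LacZ hairpin (blue circles) and in the library with the Pspc1 hairpin (orange diamonds), 1 library each. To the right of the dotted line at 20 most pairs lie close together, with Cenpa and Cenpx as the widest gaps, and to its left most diamonds lie to the left of their circles.

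The cyclins and the regulators of CDK1 had similar values in both libraries. Cdk1, the kinase of mitotic entry, had 263.1 and 270.3 (log2 ratio 0.04). The mitotic cyclin genes Ccnb1 and Ccnb2 had 94.6 and 89.2, and 109.6 and 91.2. Ccna2, the cyclin of S phase and early mitosis, had 121.4 and 92.5, the lowest ratio of these genes at -0.39 (interval -0.44 to -0.34). Ccnf, a ubiquitin ligase subunit that carries a cyclin fold, went the other way with 189.0 and 264.8 (0.49, interval 0.45 to 0.52). Both lay short of 1.5-fold. Cdc25b and Cdc25c encode phosphatases that activate CDK1. Cdc25b had 134.6 and 128.6, and Cdc25c, at a far lower value, 13.7 and 15.3. The small CDK-binding subunits Cks1b and Cks2 had 172.2 and 172.0, and 45.1 and 46.3. Of the transcriptional and ubiquitin ligase triggers, the forkhead factor Foxm1 had 178.3 and 151.4 and Cdca3, which helps destroy the CDK1 inhibitor WEE1, had 155.0 and 169.9. No gene of these kinds passed either call rule.

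Mitotic kinase genes lay within 1.5-fold as well. Plk1, the polo kinase of spindle assembly and mitotic exit, had 273.5 and 287.8 (0.07). Aurka, the spindle pole kinase, had 202.5 and 244.3 (0.27), and Aurkb, the kinase of the chromosomal passenger complex, 125.3 and 108.2 (-0.21). The ratios of the Aurora genes thus lay on opposite sides of 0, each with a counting interval that leaves 0 out (0.23 to 0.31, and -0.26 to -0.16). Nek2, a centrosome kinase, had 54.7 and 46.7. Ttk, the checkpoint kinase MPS1, had the lowest mean of all 59 genes, 1.29 and 1.005, on 84 and 51 reads, and its interval of -0.89 to 0.16 spans 0.

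In the spindle checkpoint and the anaphase-promoting complex, the well-measured genes lay within 1.5-fold. Cdc20, the activator of the complex, had 589.4 and 689.3 (0.23). Ube2c, its ubiquitin-conjugating enzyme, had 403.4 and 401.1 (-0.01). Bub3, a checkpoint protein that binds kinetochores, had 277.5 and 331.4, Bub1b, which encodes BUBR1, 102.2 and 96.0, and Mad2l1, the inhibitor of CDC20, 62.6 and 54.5. The kinase gene Bub1 had 2.54 and 1.02, on 166 and 52 reads, a log2 ratio of -0.998, or -1.31 without pseudocount (interval -1.79 to -0.85). It passed the 1.5-fold rule for genes of mean under 20. Pttg1, which encodes securin, was the low-valued gene with the highest ratio, 9.04 and 12.8 (0.48, interval 0.34 to 0.67), short of 1.5-fold.

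The largest differences of well-measured genes were at the centromere. Cenpa (ENSMUSG00000029177, mm10 chr5:30666777-30674830, plus strand), the histone H3 variant that marks the centromere, rose from 125.6 to 224.8, 1.79-fold, with a log2 ratio of 0.84 and an interval of 0.80 to 0.88. Cenpx (ENSMUSG00000025144, mm10 chr11:120710942-120713738, minus strand), a small histone-fold protein of the CENP-T complex that also serves the Fanconi anaemia pathway, fell from 98.5 to 46.6, 2.11-fold, with a log2 ratio of -1.07 and an interval of -1.15 to -1.01. Of the 32 genes whose mean reached 50, Cenpx alone met the 2-fold rule. Its exons overlap no other annotated gene, and none of its 50-base stretches occurs in another gene's transcripts. Birc5 (survivin) and Cdca8 (borealin), both of the chromosomal passenger complex, had 209.5 and 247.8, and 78.6 and 89.6.

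Kinetochore genes of low value were lower with the Pspc1 hairpin. The NDC80 complex, which grips microtubules, has 4 subunits, of which Spc24 had 131.7 and 112.4 (-0.23) and the other 3 had means under 20. Spc25 fell from 13.4 to 6.21 (log2 ratio -1.05), Nuf2 from 17.6 to 10.8 (-0.69) and Ndc80 from 3.08 to 1.83 (-0.62). Cenpe, a kinetochore motor, fell from 2.02 to 0.75 (-1.01), on 132 and 38 reads. Cenpf, a large kinetochore and nuclear envelope protein, fell from 3.37 to 1.95 (-0.66). Cenpi, a member of the constitutive centromere network, had 13.99 and 9.28 (-0.57), short of 1.5-fold with the pseudocount and 1.51-fold lower without it. In this way 5 of the 6 low-valued centromere and kinetochore genes passed the 1.5-fold rule as lower, against 20.5% of all genes under 20.

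The kinesin genes divided along the same line. Kif22, Kif2c, Kif18b and Kif20a, with means above 50, all had ratios above 0, from 0.02 for Kif20a (54.3 and 55.2) to 0.21 for Kif2c (106.0 and 122.8). For Kif20a that direction depended on the scaling: scaled by total reads its ratio was -0.08, and its counting interval of -0.05 to 0.10 spans 0. Scaled by total reads, Kif2c (0.11), Kif22 (0.04) and Kif18b (0.03) stayed above 0. Kif2c encodes a microtubule depolymerase that corrects attachments, Kif22 a chromokinesin (143.6 and 158.7) and Kif18b a motor of astral microtubules (101.9 and 111.7). The 5 kinesin genes of low value all had ratios below 0. Kif20b, a cytokinesis motor, fell from 2.93 to 0.61, the lowest ratio of all 59 genes at -1.63, or -2.26 without pseudocount (interval -2.86 to -1.71, 191 and 31 reads). Kif11, the bipolar motor that separates spindle poles, fell from 4.08 to 1.44 (-1.24), and Kif23, a subunit of centralspindlin, from 9.67 to 6.09 (-0.63). Kif14, which acts in cytokinesis, had 3.601 and 2.36 (-0.52), and the chromokinesin Kif4 4.06 and 2.90 (-0.43), both short of 1.5-fold with the pseudocount. Without it Kif14 was 1.52-fold lower and Kif4 1.40-fold lower.

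Spindle-binding and cytokinesis genes showed both patterns. Tpx2, which activates Aurora A, had 79.8 and 63.1 (-0.34), and Tacc3, a spindle protein that Aurora A phosphorylates, 85.9 and 96.2. Aspm, a spindle pole protein, fell from 4.17 to 1.26 (-1.41), and Hmmr, a spindle and hyaluronan-binding protein, from 3.43 to 1.65 (-0.87). Nusap1, which bundles microtubules, had 7.20 and 4.89 (-0.52). Racgap1, the partner of Kif23 in centralspindlin, had 145.9 and 144.9 (-0.01). Prc1, which bundles midzone microtubules, had 32.0 and 27.1. Anln (ENSMUSG00000036777, mm10 chr9:22332012-22389188, minus strand), anillin of the contractile ring, fell from 35.1 to 21.3, a log2 ratio of -0.71 with an interval of -0.82 to -0.61. After the trend on exonic length and GC was removed the ratio of Anln was -0.50, short of 1.5-fold. Ect2, which activates RhoA at the cell equator, fell from 8.04 to 3.82 (-0.98).

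Chromosome structure genes divided by level too. Ncapd2 and Ncaph, regulatory subunits of condensin I, had 271.9 and 299.4 (0.14), and 64.1 and 55.9 (-0.20). The remaining subunits had low values and were lower with the Pspc1 hairpin. Smc2 fell from 4.01 to 1.85 (-0.94), Smc4, the other ATPase, from 4.12 to 1.60 (-1.14), and Ncapg from 2.79 to 0.97 (-1.17). Top2a (ENSMUSG00000020914, mm10 chr11:98992943-99024189, minus strand), the topoisomerase that untangles sister chromatids, fell from 25.99 to 13.7 (-0.90, interval -1.06 to -0.80). Mki67 (ENSMUSG00000031004, mm10 chr7:135689784-135716361, minus strand), the Ki-67 protein that coats mitotic chromosomes and is the usual marker of dividing cells, fell from 6.22 to 1.99, with a log2 ratio of -1.43. Without pseudocount this was 3.13-fold lower, a log2 ratio of -1.64 (interval -1.97 to -1.33, 406 and 101 reads). All 5 low-valued genes of this kind passed the 1.5-fold rule as lower, against 20.5% of all genes under 20.

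Counted together, 22 of the 24 genes with a mean under 20 had a log2 ratio below 0, where 65.28% of all 5513 genes of that level did. The exceptions were Pttg1 and Cdc25c. At least 1.5-fold lower were 17 of the 24 (70.8%), against a background of 20.5%, and none was higher by that factor, against 5.88%. At least 2-fold lower were 8 of the 24 (33.3%), against 4.26%, and none was 2-fold higher, against 1.80%. Their median log2 ratio was -0.89, beside -0.19 over all genes of that level. The values rest on few reads, 31 at the least, with a median interval width of 0.68 log2. The interval of Ttk was the only one of the 22 below 0 that reached 0. Summed, the 24 genes had 170.4 and 106.0, a small part of the 5488.7 and 5719.1 summed over all 59 genes. The log2 ratio of the sums was -0.69 for the 24 genes and 0.06 for all 59. The same ratio was -0.18 over all genes of mean under 20 and 0.10 over all 11405 genes.

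How many passed the fold rules depended on the treatment of low values. With a pseudocount of 5, 3 of the 24 were at least 1.5-fold lower (background 3.65%) and none 2-fold (background 0.327%). Without a pseudocount 19 were 1.5-fold lower (background 25.5%). After the trend of the ratio on exonic length, GC and level was removed, 10 were 1.5-fold lower (background 10.2%), 21 were below 0 and the median was -0.55, beside -0.08 over all genes of that level. Removal of the trend on length and GC alone left 13 at 1.5-fold (background 12.8%) and 3 at 2-fold (background 2.29%). That trend was fitted on genes of mean 20 or more and extended to the low-valued genes. The trend with level was fitted on genes of all levels. With length and GC alone removed, the median over all genes of mean under 20 was still -0.12.

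**Figure D3:**
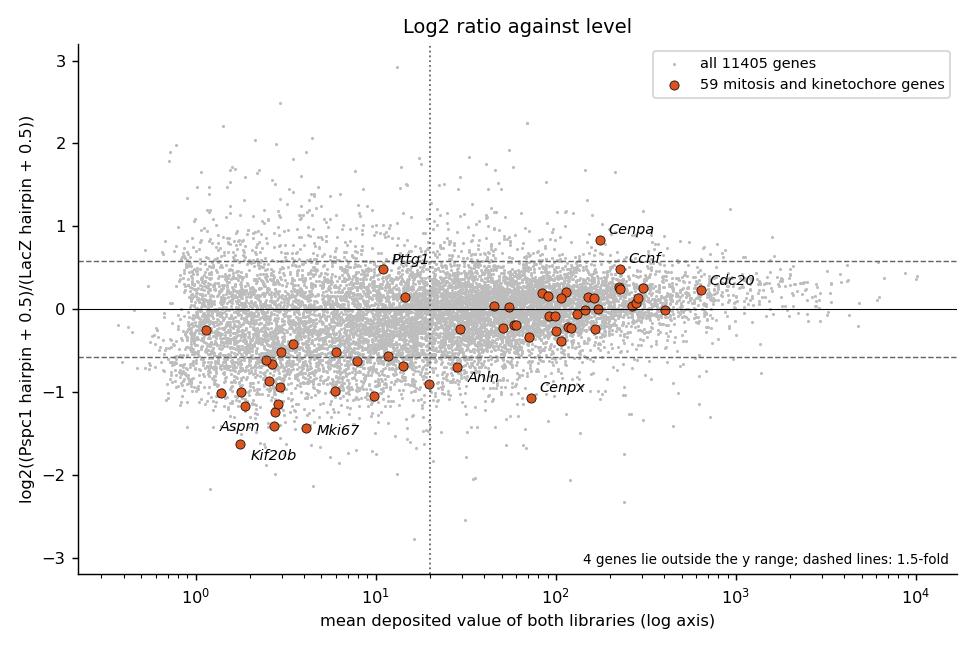
Log2 ratio of the Pspc1 hairpin over the LacZ hairpin (y axis) against the mean deposited value of both libraries (x axis, log scale) for all 11405 genes (grey) and the 59 mitosis and kinetochore genes (orange). Left of the dotted line at a mean of 20 most orange points lie under the lower dashed line at 1.5-fold, and right of it most lie between the dashed lines.

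Level, base composition and length went together across the group, more between low-valued and other genes than within either kind. The low-valued genes had a median GC content of 42.5% and merged exons of 6011 bp at the median, where the others had 49.3% and 4275 bp. Of the 23 genes under 45% GC, 19 had a mean under 20 (82.6%) and 21 a log2 ratio below 0, with a median ratio of -0.87. Of the 36 genes of 45% GC or more, 5 had a mean under 20 (13.9%), and the median ratio was -0.005. Over all genes, 70.5% of the 2640 under 45% GC had a mean under 20, and 2084 of them had a log2 ratio below 0. Of the 8759 genes of 45% GC or more, 41.7% had a mean under 20. The median ratio over all genes was -0.33 under 45% GC and 0.02 for the others. Spearman's rho across the 59 genes was 0.61 between ratio and GC, -0.42 between ratio and exonic length, 0.77 between ratio and mean value, and 0.78 between value per kb of exons and GC. Over all 11405 genes, or the 11399 with a GC value, the same rhos were 0.37, -0.37, 0.26 and 0.37. Within each kind the rhos were weaker than across the 59 genes. In the same order they were 0.39, -0.37, 0.35 and 0.05 for the 24 low-valued genes. For the 35 others they were 0.17, 0.03, 0.58 and 0.53. These are descriptions across genes of the same libraries, which share their depth and are not replicates. The part of length and base composition in the lower values was not tested beyond the trend removal above.

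Subunits of the same complex differed widely in level per length. In the NDC80 complex, Spc24 had a mean value of 47.4 per kb of exons and Ndc80 0.38, with Spc25 at 3.08 and Nuf2 at 2.24. In condensin I the values per kb ran from 0.27 for Ncapg to 45.6 for Ncapd2, with Smc2 at 0.54 and Smc4 at 0.55. Bub1 had 0.41 per kb, Bub1b 23.2 and Bub3 43.5. In each case the subunit of lowest level per kb had less GC than the one of highest level: 42.4% against 52.9%, 34.8% against 54.0%, and 41.0% against 47.6%. Level did not follow GC throughout, since Bub1b (50.4%) had more GC than Bub3, and Nuf2 (41.7%) less than Ndc80. In centralspindlin, Kif23 (0.997 per kb) and Racgap1 (20.5 per kb) had the same GC content of 46.3%. The chromosomal passenger genes lay closer, from 16.2 per kb for Cdca8 to 67.2 for Birc5, with Aurkb at 39.6 and Incenp, the scaffold, at 40.1. Exonic length merges all annotated exons of a gene, so a value per kb is lower where a gene has long alternative exons.

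**Figure D4:**
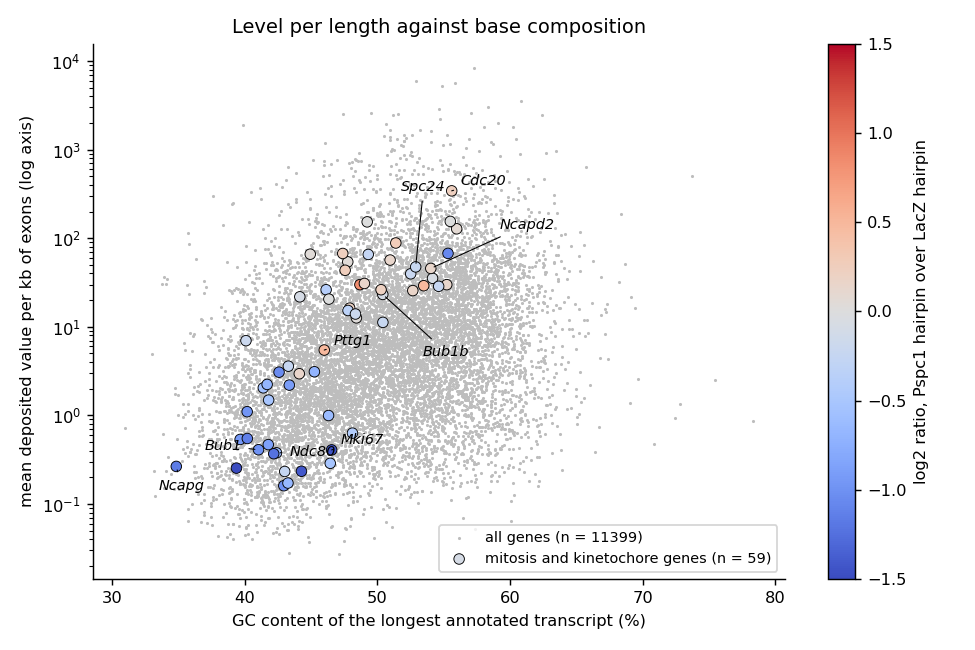
Mean deposited value per kb of exons (y axis, log scale) against the GC content of the longest annotated transcript (x axis, percent) for 11399 genes (grey) and the 59 mitosis and kinetochore genes (coloured by log2 ratio, blue lower and red higher with the Pspc1 hairpin). The genes with the bluest colours lie at low value per kb and mostly under 45% GC, with Cenpx as a blue point among the high values.

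Genes of mitosis outside the group repeated the split by level. In 7 lists picked by function, 123 of 128 genes had values. Of the 59 with a mean of at least 20, none was 1.5-fold higher and 2 were lower (3.39%), with a median log2 ratio of 0.003. Over all genes of that level, 3.82% were higher and 5.52% lower. The lower genes of these lists were Rad21, the cohesin subunit that separase cuts, and Pcnt, a centrosome scaffold. Rad21 went from 84.3 to 37.6 (log2 ratio -1.15, also past the 2-fold rule) and Pcnt from 26.5 to 16.0 (-0.71). Of the 64 with a mean under 20, 25 were 1.5-fold lower (39.1%, against the 20.5% over all genes of that level), none was higher, 56 were below 0 and the median was -0.51. Their median after removal of the length, GC and level trend was -0.24.

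Cohesin, which holds sister chromatids together, had the lowest median of low-valued genes among these lists. Of its 10 low-valued genes all had ratios below 0 and 6 were 1.5-fold lower (60.0%, background 20.5%), with a median of -1.05. The ring subunits Smc1a and Smc3 went from 11.5 to 5.20 (-1.07) and from 5.29 to 1.77 (-1.35), and the loader Nipbl from 2.42 to 0.69 (-1.30). These were named after their values were seen. Espl1, which encodes separase, had 95.2 and 93.9, Cdca5 (sororin) 73.1 and 86.3, and Mau2, the partner of Nipbl, 66.0 and 53.05, all short of 1.5-fold.

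Other spindle and centrosome genes had 19 low-valued members, of which 18 were below 0 and 9 were 1.5-fold lower (47.4%, background 20.5%, median -0.54). Well-measured genes short of 1.5-fold were Kifc1, a minus-end motor (209.2 and 237.7), Kpna2, an importin (282.1 and 257.6), Stmn1, which destabilises microtubules (146.8 and 132.6), and Tubg1, gamma-tubulin (186.6 and 175.0). Among other centromere and kinetochore genes, 4 of 18 low-valued members were 1.5-fold lower (22.2%, near the background of 20.5%) and 15 were below 0 (median -0.19). Of the 8 with a mean of at least 50, 3 had ratios below 0 and 5 above. The 4 with the largest ratios, all above 0 and short of 1.5-fold, were Zw10 and Zwint, which help recruit dynein to kinetochores (59.1 and 76.3, and 71.7 and 86.8), Incenp (166.5 and 180.5) and Cenpm (54.9 and 60.2). Scaled by total reads, the last 2 ratios stayed above 0 at 0.01 and 0.03.

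The anaphase-promoting complex itself had 14 of 17 genes with a mean of at least 20, and none of the 17 passed a 1.5-fold rule (median of the 14 at 0.02). Anapc1, the scaffold, had 155.2 and 122.8 and Anapc5 744.9 and 613.3, while Anapc7 had 175.5 and 218.7 and Fzr1, the activator CDH1, 118.7 and 151.2. The control genes of mitotic entry and exit had no called gene among 13 well-measured ones, with 69.0 and 75.1 for the CDK1-inhibiting kinase Wee1, 92.9 and 106.9 for the phosphatase Cdc25a, and 132.4 and 146.8 and 115.6 and 119.4 for the phosphatase inhibitors Ensa and Arpp19. Of 4 low-valued ones 2 were 1.5-fold lower, where the share over all genes under 20 was 20.5%. Among other condensin genes, Ncaph2 of condensin II had 349.9 and 362.7, and 1 of 2 low-valued genes was 1.5-fold lower (the same background of 20.5%). Among the DREAM and B-MYB genes that act on mitotic promoters, Mybl2 (B-MYB) had 134.8 and 151.3, E2f4 150.3 and 125.9, Tfdp1 158.0 and 141.6 and Rbbp4 204.5 and 199.2, with no call among 4 well-measured genes. Of its 8 low-valued genes 3 were 1.5-fold lower (37.5%, background 20.5%, median -0.41).

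**Figure D5:**
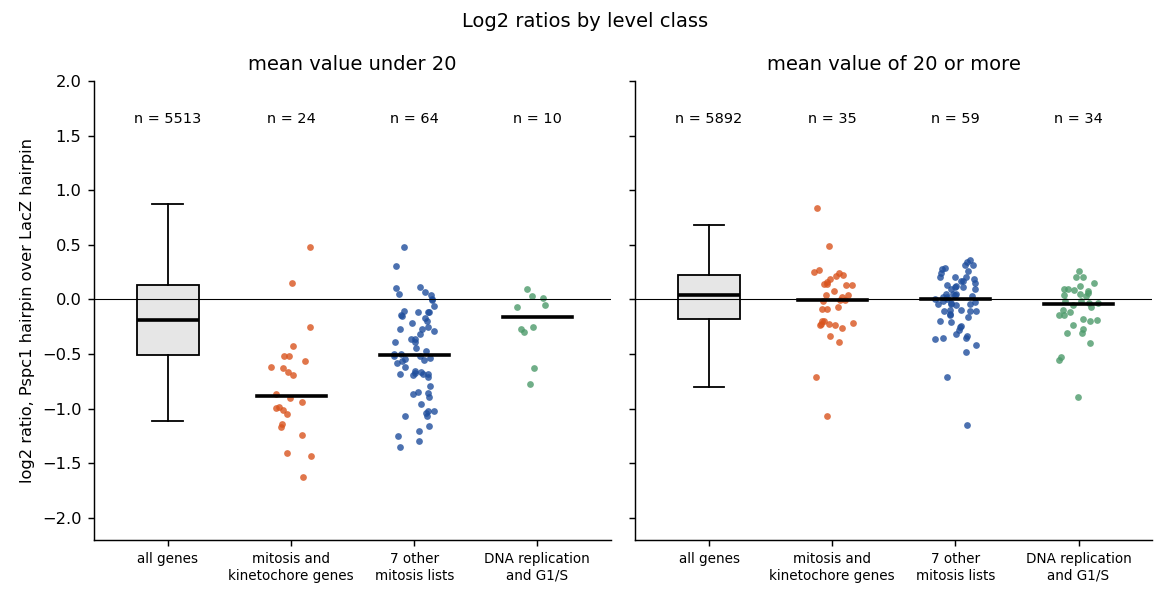
Log2 ratios (y axis) of all genes (box: median and quartiles, whiskers: central 95%), the mitosis and kinetochore genes, the genes of 7 other mitosis lists and DNA replication genes (points, bars at the median), for genes with a mean value under 20 (left) and of 20 or more (right). On the left the medians are -0.19, -0.89, -0.51 and -0.16, and on the right all 4 lie between -0.04 and 0.04.

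Genes of DNA replication and the G1/S transition were mostly well measured, with 34 of 44 at a mean of at least 20. Of these, 1 was 1.5-fold lower and none higher, against 5.52% and 3.82% over all genes of that level. The median of the 34 genes was -0.04. The lower gene was Mcm7, a subunit of the replicative helicase (581.1 and 313.4, log2 ratio -0.89), whose exons overlap other genes. Of the 10 low-valued genes 2 were 1.5-fold lower (median -0.16), near the background of 20.5%. The replication genes Pole, Rfc5 and Tyms had 72.2 and 49.8, then 116.2 and 88.0, and 134.2 and 108.1, all short of 1.5-fold. Of 11 well-measured arrest and p53 genes, 1 was 1.5-fold higher and 1 lower, against 3.82% and 5.52% over all genes of mean 20 or more. Cdkn1a, the CDK inhibitor p21, rose from 500.5 to 838.6 (0.74, interval 0.72 to 0.77), and Ccng1, cyclin G1, a p53 target, fell from 45.2 to 26.7 (-0.75). Trp53, the gene of p53 itself, had 362.6 and 524.0, Mdm2, its ubiquitin ligase, 58.6 and 46.4, and Cdkn1b, the CDK inhibitor p27, 70.1 and 59.5, none past 1.5-fold.

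For some genes the reads cannot be assigned with certainty. Exons of 19 of the 59 genes overlap those of another annotated gene, and the libraries are not stated to keep strand. In 10 genes over 10% of the 50-base stretches of their transcripts also occur in another gene's. Cks2 (29.7%), Ccnb1 (23.4%), Cdc20 (10.6%) and Plk1 (10.4%) share them most with processed pseudogenes, and Kif20a (25.2%, with Cdc23), Ube2c (16.0%, with Tnnc2), Kif4 (14.5%, with Pdzd11), Cdc25c (11.9%, with Gm3550), Ncapg (11.8%, with Lcorl) and Ccna2 (11.4%, with Exosc9) with other genes. Of the 17 low-valued genes that were 1.5-fold lower, 15 have no exon overlap.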

How the data were processed

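RNA sequencing gave 1 library with the LacZ hairpin and 1 with the Pspc1 hairpin. The deposited values are a signal per gene, scaled read counts made by the authors. The submitters' processing notes name HISAT2 2.1.0 beside Trimmomatic 0.39, and DESeq 1.39.0 beside featureCounts 2.0.0. Strandedness and annotation release are not given in the sources used here. In each library 100.0% of values lay within 0.01 reads of a whole multiple of 1 step, and the multiples were taken as reads for counting intervals (95%, exact conditional binomial). These reads are inferred, so no count test was run on them. With 1 library per group, no test between conditions was possible. Log2 ratios used the deposited values with a pseudocount of 0.5. Genes were called at 2-fold with a mean of at least 50, or 1.5-fold with a mean of at least 20. Rules for means under 20, and removal of a trend on length, GC and level, were added after seeing the data. The members and lists were chosen with earlier results of these data known. All members are named, and from other lists any called gene and up to 4 genes of mean 50 or more with the largest ratio. Alternatives were 3 other scalings, pseudocounts of 0 and 5, minimum means of 10 and 100, removal of length and GC trends, and genes without exon overlap. Lengths, GC, overlaps and positions came from GENCODE M21 (mm10), with 11399 symbols matched, and promoters from RefSeq GRCm38.p6. Protein sequences were not analysed here. Python 3.11.15, numpy 2.4.6, pandas 2.3.3, scipy 1.17.1 and matplotlib 3.10.9 were used, and the calculations were tested on simulated data.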

Additional observations from a re-analysis of the deposited data

How the results depend on the processing

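No paired analysis was possible because each group held 1 library, and for the same reason no replicate could be left out. Depth limits the genes of mean under 20 most, and the spread between cultures is unknown, so counting intervals understate the error. None of the 20 called genes changed sign under any of the scaling, pseudocount and trend alternatives run. They were picked for large ratios, and a pseudocount cannot change a sign, so this outcome was largely fixed in advance. Of all 59 members, 3 changed sign with TMM (trimmed mean of M values) scaling, 3 with the median of ratios and 4 with total reads. With the length and GC trend removed 4 changed sign, and with length, GC and level removed 10. Scaling by total reads moved the median of all genes of mean 20 or more by -0.10. TMM moved it by 0.04 and the median of ratios by 0.05. Removal of length, GC and level took it from 0.04 to -0.03. The medians by role or list given below include these shifts. A change of scaling multiplies all knockdown values by the same constant, so it moves all well-measured ratios by about the same amount. A pseudocount of 5 shrinks the ratios of low values by construction. The cause of the other shifts listed next was not tested. The Pspc1 log2 ratio was -2.77 and became -1.94 (pseudocount 5), -2.54 (length and GC removed), -2.52 (length, GC and level removed). The median log2 ratio of the members of mean 20 or more was -0.00112 and became 0.049 (median of ratios), -0.10 (total reads), 0.10 (minimum 100). The count of members 1.5-fold lower was 2 and became 1 (length and GC removed), 1 (length, GC and level removed), 4 (minimum 10), 0 (minimum 100). The count of members 2-fold lower was 1 and became 0 (minimum 100). The count of low-valued members 1.5-fold lower was 17 and became 3 (pseudocount 5), 10 (length, GC and level removed). The count of low-valued members 2-fold lower was 8 and became 0 (pseudocount 5), 3 (length and GC removed), 2 (length, GC and level removed). The median of the low-valued members was -0.89 and became -0.39 (pseudocount 5).

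Medians of well-measured genes by role or list moved as follows, some of them across 0. Several rest on few genes. Other condensin genes had 1 well-measured gene and cytokinesis 3. Spindle and microtubule binding, chromosome structure, and the triggers of mitosis had 2 each. With a minimum of 100 or without overlaps fewer genes may remain. Cyclins, CDK1 and its regulators went from -0.033 to 0.017 (median of ratios), -0.14 (total reads), -0.17 (length, GC and level removed). Mitotic kinases went from -0.069 to -0.019 (median of ratios), -0.17 (total reads), -0.16 (length and GC removed), -0.23 (length, GC and level removed), 0.074 (minimum 100), 0.029 (no overlap). Spindle checkpoint and anaphase-promoting complex went from -0.00845 to 0.034 (TMM), 0.042 (median of ratios), -0.11 (total reads), 0.042 (length and GC removed), -0.096 (length, GC and level removed), 0.11 (minimum 10), 0.23 (minimum 100), -0.090 (no overlap). Centromere and kinetochore went from 0.19 to 0.24 (median of ratios), 0.085 (total reads), 0.25 (length and GC removed), 0.13 (length, GC and level removed), -0.23 (minimum 10), 0.24 (minimum 100), 0.00738 (no overlap). Mitotic kinesins went from 0.14 to 0.034 (total reads), 0.048 (length, GC and level removed). Spindle and microtubule binding went from -0.087 to -0.19 (total reads), -0.15 (length, GC and level removed), -0.34 (no overlap). Cytokinesis went from -0.24 to -0.34 (total reads), -0.00394 (length and GC removed), 0.013 (length, GC and level removed), -0.010 (minimum 100), -0.36 (no overlap). Chromosome structure went from -0.028 to -0.13 (total reads), -0.088 (length, GC and level removed), -0.20 (minimum 10), 0.14 (minimum 100), -0.20 (no overlap). Transcription and ubiquitin ligase triggers of mitosis went from -0.052 to -0.00954 (TMM), -0.0016 (median of ratios), -0.16 (total reads), -0.18 (length, GC and level removed), 0.13 (no overlap). Anaphase-promoting complex and its partners went from 0.022 to -0.081 (total reads), 0.11 (length and GC removed), 0.17 (minimum 100), -0.046 (no overlap). Cohesin and separase went from -0.17 to -0.27 (total reads), -0.055 (length and GC removed). Other centromere and kinetochore genes went from 0.096 to -0.00724 (total reads), 0.014 (length and GC removed), -0.10 (length, GC and level removed), -0.041 (minimum 10), -0.041 (minimum 100). Other condensin genes went from 0.052 to 0.094 (TMM), 0.10 (median of ratios), -0.052 (total reads), 0.000796 (length and GC removed), -0.13 (length, GC and level removed), -0.26 (minimum 10). Other spindle and centrosome genes went from -0.11 to -0.22 (total reads), -0.17 (length and GC removed), -0.24 (length, GC and level removed), -0.25 (minimum 10). Mitotic entry and exit control went from 0.034 to -0.069 (total reads). MuvB, DREAM and B-MYB went from -0.098 to -0.048 (median of ratios), -0.20 (total reads), 0.00233 (length and GC removed), 0.014 (minimum 10), -0.16 (no overlap). DNA replication and G1/S went from -0.042 to 0.00777 (median of ratios), -0.15 (total reads), -0.14 (length, GC and level removed). Cell cycle arrest and p53 targets went from -0.043 to -0.15 (total reads), -0.15 (length, GC and level removed), 0.17 (minimum 100).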
